A study of Mus musculus with 12 samples.

Results

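Described here are the genes Krt4, Krt5, Krt6a, Krt13, Krt14, Krt15, Krt16 and Krt17, which encode keratins of basal and squamous epithelium, and Trp63, which encodes the transcription factor p63. These are 9 of the 18193 genes measured. They were chosen by symbol, and each was read from the probe set (the group of array features for 1 transcript) with the highest mean over the 12 arrays among probe sets that carry that symbol alone. All 9 were measured, through 20 of the 45101 probe sets on the array, and no filter on low values was applied.

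Total RNA from 12 tumour samples of 3 mouse lung adenocarcinoma lines was hybridised to 1-colour Affymetrix arrays, 4 arrays for each line. The lines were 344SQ, established from a subcutaneous site of 1 mouse and called highly metastatic in the labels, 393LN, from a mediastinal lymph node of another mouse and called intermediately metastatic, and 393P, from a primary lung tumour of the same mouse as 393LN and called non-metastatic. Both mice carried the alleles p53R172H∆g/+ and K-rasLA1/+, so an altered p53 gene and an activated K-ras gene are shared by all 3 lines, and 344SQ differs from the others by mouse as well as by site. Each line is a mass population passaged in RPMI medium with 10% serum, and the series' design text describes syngeneic tumours that were dissected from adjacent tissue and frozen, so host cells contributed RNA. The ages of the animals were not given in the sources used here. Nothing in the labels ties a sample to its own animal, so the p-values measure the spread between these samples.

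Keratins are obligate partners: a type II keratin such as Krt5 pairs with a type I keratin such as Krt14, and the pairs assemble into the intermediate filaments that give epithelial cells mechanical strength. Simple epithelia and the glandular tumours that resemble them, lung adenocarcinoma among them, use Krt8 with Krt18. Basal cells of stratified epithelium and of the airway use Krt5 with Krt14 or Krt15 under the control of p63, wounded or activated epidermis adds Krt6a with Krt16 and Krt17, and the moist lining of the mouth and oesophagus uses Krt4 with Krt13. In lung pathology Krt5 and p63 are used to tell squamous carcinoma from adenocarcinoma.

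Krt5 and Krt14 are partners whose levels moved together over the arrays, as described below, and their promoter windows are therefore shown. The windows are from RefSeq on GRCm38.p6, run 5′ to 3′ on the coding strand and cover 300 bases around the annotated start. Krt5 lies on the minus strand at chr15:101712856-101713155 and Krt14 on the minus strand at chr11:100205981-100206280. Capitals mark motif matches on either strand.
Krt5: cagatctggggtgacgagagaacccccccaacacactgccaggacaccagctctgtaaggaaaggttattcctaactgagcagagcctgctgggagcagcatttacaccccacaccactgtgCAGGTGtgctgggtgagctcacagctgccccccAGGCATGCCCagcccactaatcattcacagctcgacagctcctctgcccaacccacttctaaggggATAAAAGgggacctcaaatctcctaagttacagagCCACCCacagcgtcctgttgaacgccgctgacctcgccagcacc
Krt14: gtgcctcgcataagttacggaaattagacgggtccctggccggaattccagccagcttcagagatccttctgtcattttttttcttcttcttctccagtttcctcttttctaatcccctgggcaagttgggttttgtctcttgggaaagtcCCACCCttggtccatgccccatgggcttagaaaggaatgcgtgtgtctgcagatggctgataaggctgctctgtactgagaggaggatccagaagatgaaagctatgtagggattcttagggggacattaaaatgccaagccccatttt
In Krt5 the capitals are the letters CAGGTG, which the Snail and Zeb repressors bind, from position -128, a match to the p53-family half-site from -95 to -86, a TATA-like box with the letters ATAAAAG from -29 to -23, and the KLF letters CCACCC from 6. In Krt14 the capitals are 1 CCACCC match from -99. Of 32851 such windows over all genes, 20.2% held CAGGTG, 8.36% the p53-family half-site, 5.42% ATAAAAG and 31.5% CCACCC. The Krt5 and Krt14 windows held no match to the AP-1 letters TGANTCA (7.81% of windows), the AP-2 letters GCCNNNGGC (16.6%) or TATAAA (13.6%). Matches describe these windows only. The table held windows for 3 of the 9 genes, the third being Krt13, and none was found for Krt4, Krt6a, Krt15, Krt16, Krt17 or Trp63.

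Krt6a was the 1 gene of the 9 that differed between lines. It fell in 344SQ tumours against both 393P and 393LN tumours, and this fall was seen in full with 1 of its 3 probe sets. With the probe set of the highest mean, the other 8 genes did not pass the test in any of the 3 comparisons. Krt14, Krt15, Krt16 and Krt17 differed more between arrays of 1 line than between lines. So did the median of all genes, with 28.6% of the variance between lines. In 344SQ against 393P, 0 of the 9 genes were higher and 1 was lower, where 4.86% of all genes were higher and 5.62% lower at an adjusted p under 0.05 (10.5% in either direction; limma, Benjamini-Hochberg adjustment over all genes). In 344SQ against 393LN the counts were also 0 higher and 1 lower, against 3.99% and 6.92% of all genes, 10.9% in either direction. In 393LN against 393P, 0 were higher and 0 lower by limma, against 1.75% and 0.698% of all genes called, or 2.45% in either direction. At an unadjusted p of 0.05, 0 of the 9 passed there, where 1824 of all 18193 genes were higher and 1027 lower. By the exact permutation test 0 of the 9 passed too, and that test was not run over all genes. None of the 9 was higher in 344SQ at an unadjusted p of 0.05 either. Of all genes, 2052 were higher in 344SQ against 393P and 1922 against 393LN at that threshold. The median log2 change of the 9 genes was -0.20, -0.64 and 0.38 in the 3 comparisons in that order, beside -0.00, -0.02 and 0.01 over all genes.

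**Figure D1:**
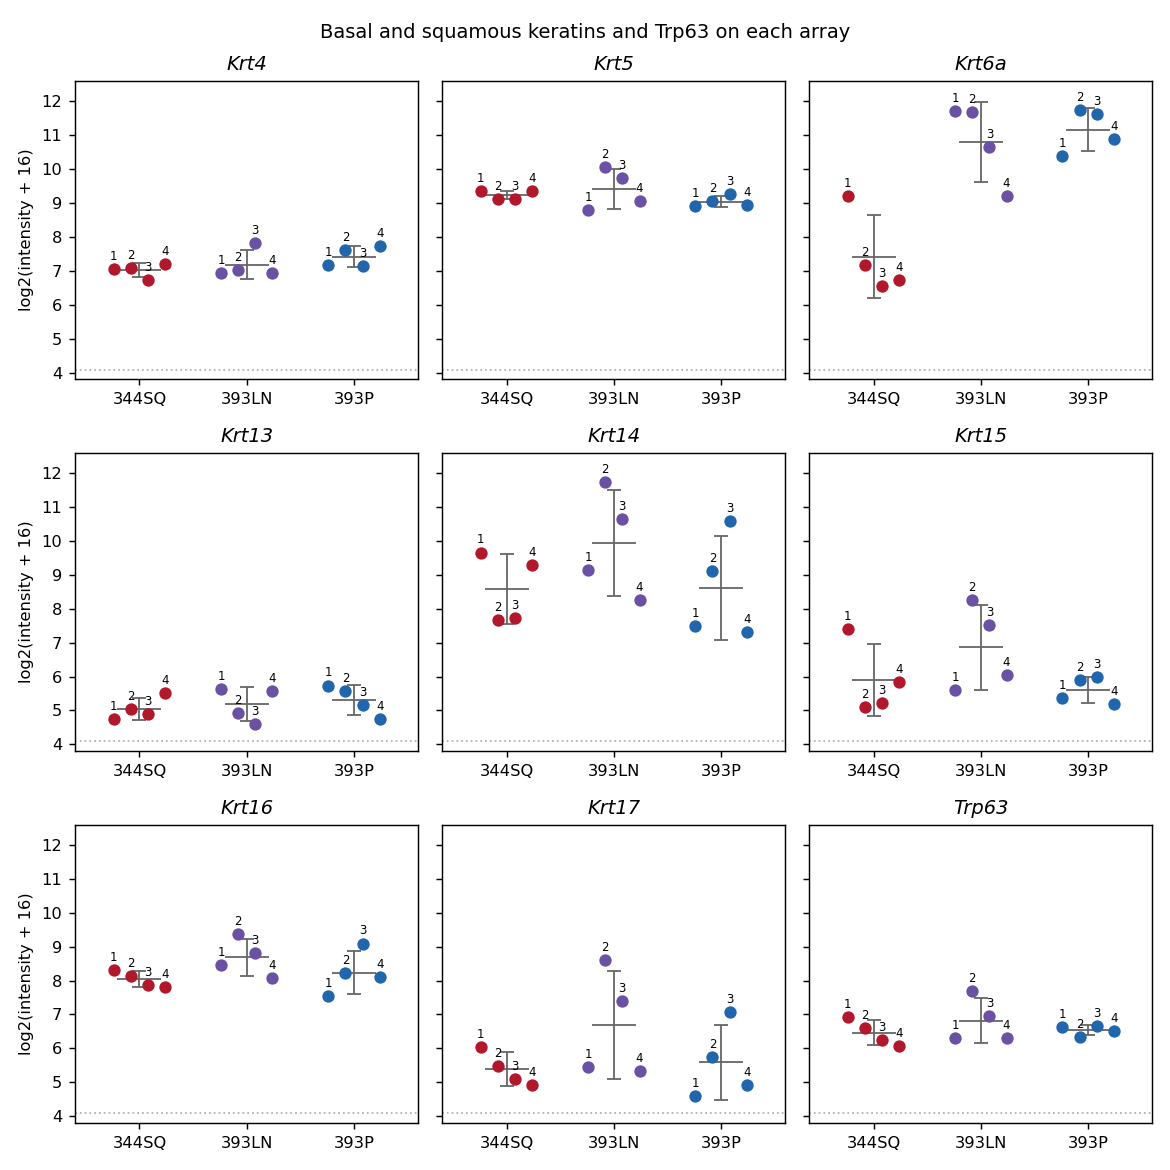
Level of each gene, log2(intensity + 16), on each of the 12 arrays by line; numbers are replicates, horizontal bars are means, error bars are SD (n = 4) and the dotted line is the lowest possible value, 4.09. The 344SQ values of Krt6a lie at or below 9.20 and those of 393LN and 393P at or above 9.21, and the Krt14, Krt15 and Krt17 values spread widely within lines.

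Levels are given as log2(intensity + 16), on which higher values mean brighter signal and the lowest possible value is 4.09. Folds near that floor understate the change, and levels of different probe sets are not comparable with each other. In dissected tumours, fewer cells of a type and less RNA per cell cannot be told apart. A 4 against 4 exact permutation test cannot give a p below 0.0286.

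Trp63 encodes p63, the regulator on which stratified epithelium depends. Its level was 6.92, 6.60, 6.24 and 6.08 in 344SQ replicates 1 to 4, 6.31, 7.69, 6.96 and 6.31 in 393LN, and 6.63, 6.34, 6.66 and 6.52 in 393P. The 3 lines overlapped, with 393LN replicates 2 and 3 and 344SQ replicate 1 as the highest arrays. The log2 change was -0.08 ± 0.28 (SE) in 344SQ against 393P (95% interval -0.68 to 0.53), -0.36 ± 0.28 in 344SQ against 393LN (-0.97 to 0.25) and 0.28 ± 0.28 in 393LN against 393P (-0.33 to 0.89). The adjusted p was 0.917, 0.470 and 0.706. The line means were 6.46 ± 0.37, 6.82 ± 0.65 and 6.53 ± 0.14 (SD, n = 4 each) in 344SQ, 393LN and 393P, and none of these neighbours differed beyond their spread. The other 3 Trp63 probe sets had line means between 4.49 and 6.07 and none passed the test.

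Krt5 is the type II keratin of basal cells. It measured 9.35, 9.13, 9.12 and 9.36 in 344SQ, 8.79, 10.06, 9.73 and 9.06 in 393LN, and 8.90, 9.05, 9.26 and 8.93 in 393P. The 393LN replicates 2 and 3 were the highest arrays and 393LN replicate 1 the lowest, so that the range of 393LN (SD 0.58) enclosed both other lines. The log2 change was 0.20 ± 0.23 in 344SQ against 393P (adjusted p = 0.673), -0.17 ± 0.23 in 344SQ against 393LN (adjusted p = 0.701) and 0.38 ± 0.23 in 393LN against 393P (adjusted p = 0.489). The 95% intervals ran from -0.30 to 0.71, from -0.68 to 0.33 and from -0.13 to 0.88.

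Krt14, the type I partner of Krt5, had the widest range over the 12 arrays (4.43) of the 5 type I keratins among the 9 genes. Its level was 9.66, 7.67, 7.72 and 9.30 in 344SQ, 9.13, 11.74, 10.63 and 8.25 in 393LN, and 7.48, 9.10, 10.59 and 7.30 in 393P. Each line held both high and low arrays, and the gap between its highest and lowest array was 3.97-fold in 344SQ, 11.2-fold in 393LN and 9.72-fold in 393P. The line means were 8.59 ± 1.04, 9.94 ± 1.55 and 8.62 ± 1.54 in 344SQ, 393LN and 393P (SD, n = 4 each), and no pair differed beyond that spread. The log2 change was -0.03 ± 0.86 in 344SQ against 393P (adjusted p = 0.990), -1.35 ± 0.86 in 344SQ against 393LN (adjusted p = 0.359) and 1.32 ± 0.86 in 393LN against 393P (adjusted p = 0.516). The intervals were wide, from -1.89 to 1.83 in 344SQ against 393P. The probe set 1460347_at gave the same order of high and low arrays in 393LN and 344SQ, with 10.80 on 393LN replicate 2, and 1455573_at stayed between 6.16 and 6.87 on all 12 arrays.

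Krt15 is a type I keratin of basal cells and of the hair follicle bulge. It measured 7.41, 5.11, 5.21 and 5.85 in 344SQ, 5.60, 8.26, 7.53 and 6.06 in 393LN, and 5.36, 5.89, 5.98 and 5.18 in 393P. Its 3 highest arrays were 393LN replicates 2 and 3 and 344SQ replicate 1, and the lines overlapped. The log2 change was 0.30 ± 0.60 in 344SQ against 393P (adjusted p = 0.833), -0.96 ± 0.60 in 344SQ against 393LN (adjusted p = 0.347) and 1.26 ± 0.60 in 393LN against 393P (adjusted p = 0.337).

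Krt6a is the type II keratin that activated epidermis switches on. Its level was 9.20, 7.18, 6.54 and 6.72 in 344SQ, 11.71, 11.68, 10.64 and 9.21 in 393LN, and 10.39, 11.76, 11.64 and 10.89 in 393P. All 4 344SQ arrays lay below all 8 arrays of the other lines, but the highest of them, replicate 1, nearly touched the lowest 393LN array, replicate 4. The means were 7.41 ± 1.22 in 344SQ, 10.81 ± 1.18 in 393LN and 11.17 ± 0.65 in 393P (SD, n = 4 each). Krt6a was 13.5-fold lower in 344SQ than in 393P, a log2 change of -3.76 ± 0.64 (SE, 95% interval -5.16 to -2.36, adjusted p = 0.00307, limma). Against 393LN it was 10.6-fold lower, a log2 change of -3.40 ± 0.64 (-4.80 to -2.00, adjusted p = 0.00619). Both comparisons use the same 4 344SQ arrays. The exact two-sided permutation test gave p = 0.0286 for each, the smallest it can give. In 393LN against 393P the log2 change was -0.36 ± 0.64 (adjusted p = 0.860, interval -1.76 to 1.04), and these 2 lines overlapped. The call against both lines was kept with any 1 array left out. Without 344SQ replicate 1 the log2 change was -4.36 against 393P and -4.00 against 393LN. Of all genes, 16.7% had no overlap between 344SQ and 393P and 17.4% none between 344SQ and 393LN.

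The 3 probe sets of Krt6a gave the same direction but not the same size. The one used, 1422784_at, had a mean of 9.80 over the 12 arrays and 1422783_a_at had 9.79, so the rule chose between near-equal means. 1422783_a_at read 9.31, 9.39, 9.11 and 9.24 in 344SQ, 10.32, 10.54, 9.66 and 9.33 in 393LN, and 9.75, 10.47, 10.45 and 9.96 in 393P. It was lower in 344SQ by 0.89 against 393P and by 0.70 against 393LN on the log2 scale, with adjusted p of 0.0517 and 0.121. 1427700_x_at had a log2 change of -1.38 in 344SQ against 393P (adjusted p = 0.154) and -1.62 in 344SQ against 393LN (adjusted p = 0.0924). The mean of the 3 probe sets passed in both comparisons, with a log2 change of -2.01 in 344SQ against 393P (adjusted p = 0.0145) and -1.90 in 344SQ against 393LN (adjusted p = 0.0193). Under quantile normalization the rule took 1422783_a_at, and the log2 change was -0.89 against 393P (adjusted p = 0.0319) and -0.59 against 393LN, where the call was lost (adjusted p = 0.141). Probe sets whose names end in _a_at or _x_at can match several transcripts, and Krt6a has a near-identical neighbour, Krt6b, so signal shared between the genes could not be separated.

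**Figure D2:**
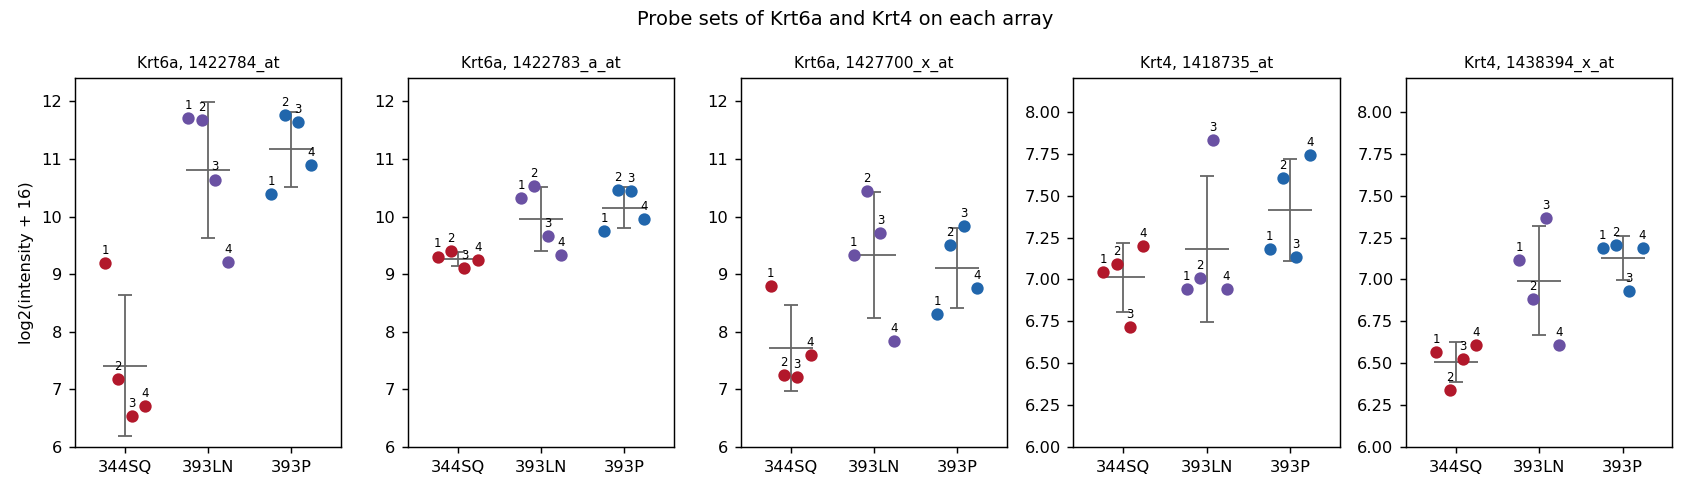
Levels, log2(intensity + 16), of the 3 Krt6a and 2 Krt4 probe sets on each array by line, with means and SD (n = 4). The 1422784_at probe set separates 344SQ from both other lines by a log2 change of more than 3, 1422783_a_at by less than 1; the Krt4 panels use a narrower axis.

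Krt6b, a neighbour of Krt6a on chromosome 15, did not follow it. It read 8.94, 6.92, 6.67 and 6.87 in 344SQ, 6.39, 11.11, 10.30 and 6.39 in 393LN, and 6.70, 6.60, 10.75 and 6.89 in 393P. The 4 arrays 344SQ replicate 1, 393LN replicates 2 and 3 and 393P replicate 3 stood above the other 8, with at least 1 such array in every line. The log2 change in 344SQ was -0.39 ± 1.20 against 393P (adjusted p = 0.898) and -1.20 ± 1.20 against 393LN (adjusted p = 0.590).

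Krt16 and Krt17 are the type I keratins that accompany Krt6a in activated epidermis. On chromosome 11 Krt16 lies between Krt14 and Krt17. Krt16 measured 8.32, 8.14, 7.87 and 7.82 in 344SQ, 8.47, 9.37, 8.82 and 8.07 in 393LN, and 7.55, 8.21, 9.09 and 8.10 in 393P. It was highest on 393LN replicate 2 and 393P replicate 3, and the lines overlapped. The log2 change of Krt16 was -0.20 ± 0.32 in 344SQ against 393P (adjusted p = 0.783), -0.64 ± 0.32 in 344SQ against 393LN (adjusted p = 0.231) and 0.44 ± 0.32 in 393LN against 393P (adjusted p = 0.565).

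Krt17 measured 6.04, 5.49, 5.09 and 4.93 in 344SQ, 5.44, 8.62, 7.39 and 5.34 in 393LN, and 4.60, 5.75, 7.06 and 4.93 in 393P. The 3 arrays above 7 were 393LN replicates 2 and 3 and 393P replicate 3, and several of the others were near the floor. The log2 change of Krt17 was -0.20 ± 0.71 in 344SQ against 393P (adjusted p = 0.913), -1.31 ± 0.71 in 344SQ against 393LN (adjusted p = 0.275) and 1.11 ± 0.71 in 393LN against 393P (adjusted p = 0.508). Krt6a is thus the 1 gene of the activation group that passed, and Krt14, Krt16 and Krt17 are similar enough in sequence that cross-hybridisation between them was not tested.

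Krt4 and Krt13 pair in the lining of the mouth and oesophagus. Krt4 read 7.05, 7.09, 6.72 and 7.20 in 344SQ, 6.94, 7.01, 7.83 and 6.94 in 393LN, and 7.18, 7.60, 7.13 and 7.74 in 393P. The lines overlapped, and 393LN replicate 3 was the highest array. The log2 change of Krt4 was -0.40 ± 0.21 in 344SQ against 393P (adjusted p = 0.292), -0.17 ± 0.21 in 344SQ against 393LN (adjusted p = 0.681) and -0.23 ± 0.21 in 393LN against 393P (adjusted p = 0.682). Its other probe set, 1438394_x_at, read 6.57, 6.34, 6.53 and 6.61 in 344SQ and 7.19, 7.21, 6.93 and 7.19 in 393P, with no overlap, and passed with a log2 change of -0.62 (adjusted p = 0.0279) over all probe sets. Against 393LN the change of that probe set was -0.48 (adjusted p = 0.0775).

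Krt13, the type I gene of this pair, read near the floor. It measured 4.75, 5.04, 4.88 and 5.51 in 344SQ, 5.63, 4.92, 4.61 and 5.57 in 393LN, and 5.74, 5.57, 5.17 and 4.76 in 393P. These values sit within 2 units of the floor, and the lines overlapped, with log2 changes of -0.26 ± 0.27, -0.14 ± 0.27 and -0.12 ± 0.27 in the 3 comparisons (adjusted p from 0.640 to 0.890).

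**Figure D3:**
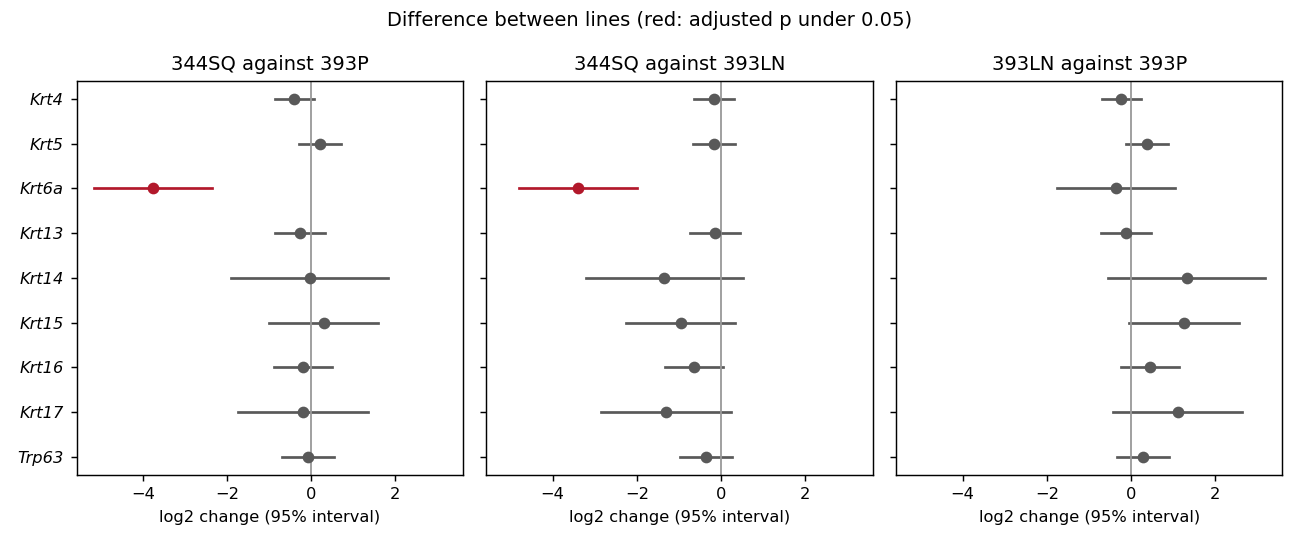
Log2 change of each gene in the 3 comparisons with 95% intervals from limma; red marks an adjusted p under 0.05. Krt6a at -3.76 in 344SQ against 393P and -3.40 in 344SQ against 393LN is the 1 gene in red, and the intervals of Krt14 and Krt17 are among the widest.

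The share of the variance over the 12 arrays that lay between lines sets Krt6a apart from the rest. It was 77.7% for Krt6a, between 7.67% and 29.1% for the other 8 genes, and 28.6% at the median of all genes. No test was made of these shares.

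Of the Krt14 probe sets, 1455573_at varied little over the arrays. By the one used, 1423935_x_at, Krt14 went up and down over the arrays with most other basal keratins. Probe sets with names ending in _x_at can match several transcripts, and cross-hybridisation with Krt16 and Krt17 was not tested. Across the 12 arrays the Krt14 level correlated with Krt17 (r = 0.905, rho = 0.809), Krt16 (r = 0.869, rho = 0.748), Krt15 (r = 0.851, rho = 0.860) and Krt5 (r = 0.807, rho = 0.748). Permutation p for r were 9e-05, 0.00036, 0.0005 and 0.00094, and those for rho 0.00235, 0.00705, 0.0007 and 0.0072. After Benjamini-Hochberg adjustment over the 9 relations computed, the r values had 0.00081, 0.00108, 0.00113 and 0.00169, and the rho values 0.0106, 0.013, 0.0063 and 0.013. Without the 2 arrays farthest from the median of Krt14, r was 0.847, 0.833, 0.735 and 0.644. For deviations from the line means, r was 0.880, 0.843, 0.817 and 0.802, so arrays of 1 line moved together too. Trp63 followed Krt14 less closely: r was 0.652 (p = 0.0167, adjusted 0.025) and rho was 0.483 (p = 0.112, adjusted 0.169). Without the 2 farthest arrays r was 0.413, so that relation rests on those arrays. Krt4 (r = 0.0721, rho = -0.00701, p = 0.824 and 0.987, adjusted 0.824 and 0.987) and Krt13 (r = -0.254, rho = -0.294, p = 0.417 and 0.351, adjusted 0.469 and 0.441) showed no such relation. Krt6a, taken within the 8 arrays of 393LN and 393P because 344SQ stood apart, had r = 0.492 and rho = 0.357 with Krt14 (p = 0.217 and 0.392, adjusted 0.279 and 0.441). Without the 2 farthest arrays these r values were 0.534 for Krt4, -0.370 for Krt13 and 0.475 for Krt6a. For deviations from the line means, r was 0.67 for Krt6a within the 8 arrays and 0.627 over all 12. By the same measure r was 0.586 for Trp63, 0.115 for Krt4 and -0.306 for Krt13. The r values of deviations were not tested. Over the 12 arrays Trp63 had a higher r with other basal keratins than with Krt14. It was 0.836 with Krt17, 0.804 with Krt15, 0.773 with Krt5 and 0.723 with Krt16. With Krt6a it was 0.426, with Krt4 0.0861 and with Krt13 -0.514. These r values of Trp63 were not tested either.

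Krt10 and Krt1, keratins of cornifying skin that are not basal, were high on the same arrays. Krt10, a suprabasal type I keratin of epidermis, read 9.86, 8.07, 7.93 and 8.38 in 344SQ, 9.23, 11.83, 10.72 and 8.12 in 393LN, and 9.34, 8.79, 10.09 and 8.25 in 393P. Its correlation with Krt14 was r = 0.870 and rho = 0.762. Since Krt10 was picked for its likeness to Krt14, no p is given, and r was 0.777 without the 2 farthest arrays and 0.853 for deviations from line means. Krt1, the type II partner of Krt10 and named after its values were seen, read 7.94, 5.88, 5.69 and 5.69 in 344SQ, 5.58, 10.31, 8.85 and 5.71 in 393LN, and 5.79, 6.04, 8.23 and 5.69 in 393P. Krt1 was thus high on the same 4 arrays as Krt6b. Since the arrays fall into a high and a low cluster, no correlation is given for Krt1. The r of Krt6b with Krt14, listed below among the most similar genes, has to be read with that split in mind. Other suprabasal keratins did not all share this pattern. Krt77 (9.58) and Krt79 (9.75) were also highest on 393LN replicate 2. Krt80 was highest on 393LN replicate 1 (10.07), Krt2 on 393P replicate 1 (5.50) and Krt78 on 393LN replicate 3 (4.85). Krt2 and Krt78 read near the floor on all arrays, so which of their arrays is highest means little.

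**Figure D4:**
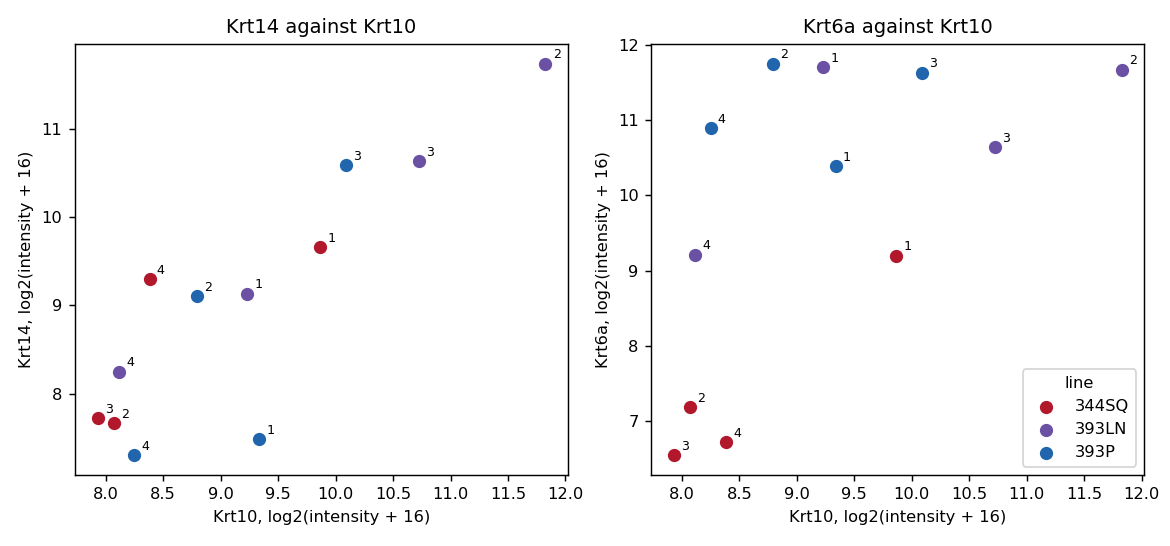
Krt14 (left) and Krt6a (right) against Krt10, each as log2(intensity + 16), for the 12 arrays coloured by line and numbered by replicate. Krt14 runs with Krt10 (r = 0.870) in all lines, and the 4 344SQ arrays have the lowest Krt6a values, with replicate 1 (9.20) close to 393LN replicate 4 (9.21).

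The marker list of epidermis and hair, which includes Krt1, Krt10 and Krt25 and so is not independent of them, was set beside these results. Its 13 measured genes, of 14 listed, had a mean log2 level of 7.21 on 344SQ replicate 1, 8.68 on 393LN replicate 2, 7.68 on 393LN replicate 3 and 7.68 on 393P replicate 3, which were the highest arrays of 344SQ and 393P and the 2 highest of 393LN. The summed intensity of the list ranged from 1457 to 2605 in 344SQ, from 1686 to 9065 in 393LN and from 2046 to 3500 in 393P, and none of its genes was at the floor on all arrays. In 344SQ, Lor, the gene of loricrin, fell by 1.03 against 393P and fell by 1.12 against 393LN on the log2 scale (adjusted p = 0.0468 and 0.0323). Tchh, the gene of trichohyalin, fell by 2.57 and fell by 2.39 (adjusted p = 0.0129 and 0.0191), and the other 11 genes of the list did not pass. The part of this list in the values of Krt14, Krt15, Krt16 and Krt17 was not tested. With the list's mean as a covariate, the log2 change of Krt6a in 344SQ was -3.39 against 393P (adjusted p = 0.00583) and -2.74 against 393LN (adjusted p = 0.0388). Without those 4 arrays it was -4.20 against 393P (adjusted p = 0.0114) and -3.65 against 393LN, where the call was lost (adjusted p = 0.0528). Both settings were chosen after the data were seen, and the list is not independent of line, since its genes Lor and Tchh fell in 344SQ. The part of the list in the values of Krt6a was not tested. The summed levels of melanocyte genes (5 measured) and mammary genes (8 measured) stayed in narrow ranges, from 419 to 605 and from 934 to 1483 over all lines. Of these, Tyrp1, a pigment enzyme, rose by 0.58 in 344SQ against 393LN (adjusted p = 0.0465), and Csn3, the gene of kappa casein, fell by 1.11 in 344SQ against 393P (adjusted p = 0.0237) and fell by 1.23 in 393LN against 393P (adjusted p = 0.0400). The summed level of 12 skeletal muscle genes reached 5611 in 344SQ, 12327 in 393LN and 5209 in 393P, and that of 6 fat genes 16946, 8454 and 8994 in the same order, and no gene of either list passed in any comparison by limma or at an unadjusted p of 0.05. The 10 measured T, B and myeloid cell genes summed to between 5619 and 12093 in 344SQ, 9055 and 14528 in 393LN, and 12484 and 17677 in 393P. Of them, Tyrobp, a signalling adaptor of myeloid and natural killer cells, fell in 344SQ by 0.92 against 393P (adjusted p = 0.0050) and fell by 0.59 against 393LN (adjusted p = 0.0450), and the other 9 did not pass. The part of these cells in the values of Krt6a was not tested. Calls in these marker lists, such as the 2 of 13 epidermis and hair genes that fell against each line, have a yardstick. In 344SQ against 393P, limma called 4.86% of the 18193 genes up and 5.62% down. The shares were 3.99% and 6.92% in 344SQ against 393LN, and 1.75% and 0.698% in 393LN against 393P. None of these marker lists was tested as a whole.

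**Figure D5:**
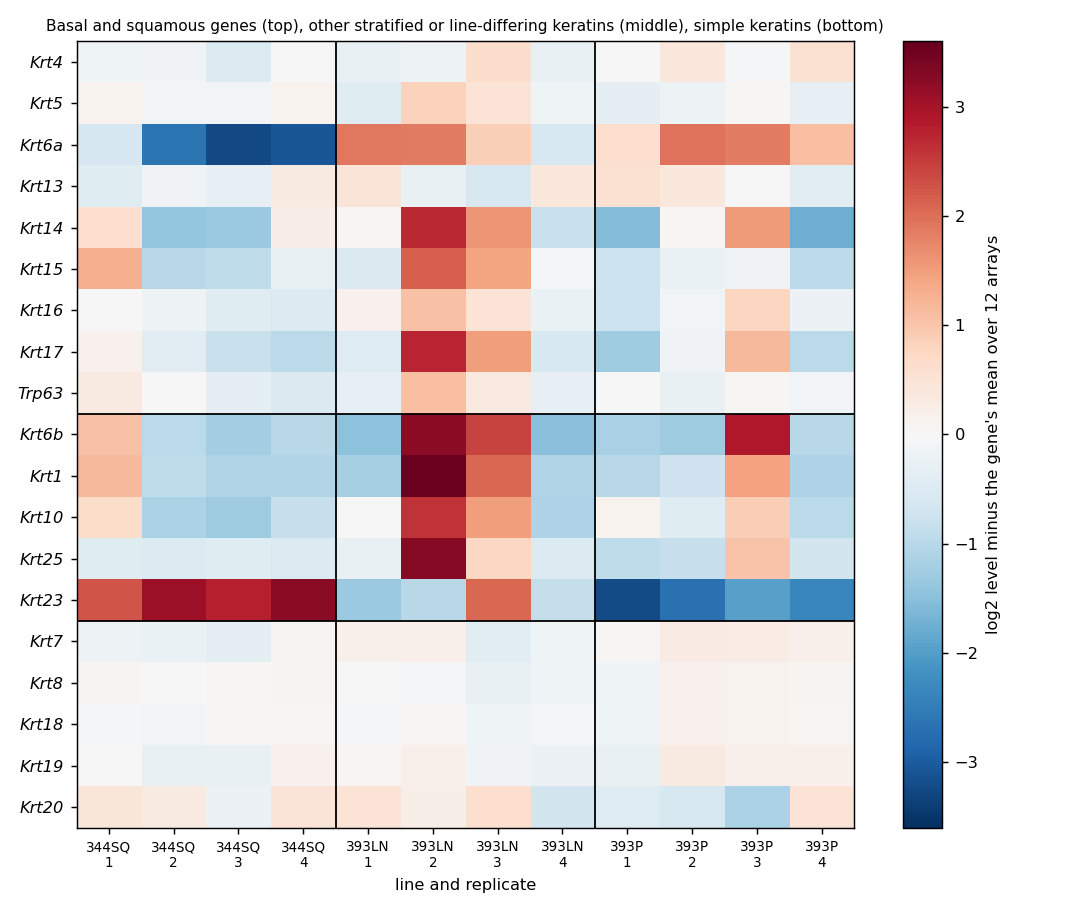
Levels on each array as the difference from the gene's mean over 12 arrays, on the log2 scale, for the 9 genes (top block), other stratified or line-differing keratins (middle) and simple keratins (bottom). The Krt14 to Krt17 rows and the Krt6b, Krt1, Krt10 and Krt25 rows are highest on 393LN replicate 2, and most of them are also high on 393LN replicate 3 and 393P replicate 3, Krt6a separates 344SQ, and the simple keratins Krt7, Krt8, Krt18 and Krt19 differ little.

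The simple keratins Krt7, Krt8, Krt18 and Krt19, typical of lung adenocarcinoma, did not show this spread, with ranges of 0.30 to 0.67 over the 12 arrays. Krt20 varied more, over a range of 1.74. Krt18 reached an intensity of 21321, where the highest of the series was 21921. Whether signal that bright narrows such ranges was not tested. Krt8 averaged 13.98 ± 0.04, 13.81 ± 0.13 and 13.98 ± 0.14, and Krt18 averaged 14.22 ± 0.08, 14.19 ± 0.09 and 14.28 ± 0.14, in 344SQ, 393LN and 393P in that order (SD, n = 4 each). None of the 5 simple keratins (Krt7, Krt8, Krt18, Krt19, Krt20) passed in any comparison. At an unadjusted p of 0.05, 1 of them, Krt7, was lower in 344SQ than in 393P and 0 passed in the other comparisons. Of the list of lung genes, Nkx2-1, the lineage factor of lung epithelium, was at or near the floor on all arrays (4.09 to 4.57). It is given as a check of the labelled tissue, and its signal did not mark these samples as lung. Epcam, an adhesion protein of epithelial cells, read 8.30 to 10.27 in 344SQ against 13.10 to 13.56 in 393LN and 393P, and fell by 3.82 against 393P (adjusted p = 2.49e-05) and fell by 3.64 against 393LN (adjusted p = 4.24e-05). Sftpb, the gene of surfactant protein B, read 13.42, 13.20, 13.28 and 11.43 in 344SQ, against 7.38 to 7.74 in 393LN and 393P. It rose by 5.23 against 393P (37.6-fold, adjusted p = 2.9e-06) and by 5.31 against 393LN (39.7-fold, adjusted p = 2.71e-06). Sftpd, the gene of surfactant protein D, fell by 1.37 against 393P (adjusted p = 0.0138). Of the 11 measured lung genes, 1 was higher and 2 lower in 344SQ against 393P, 1 and 1 in 344SQ against 393LN, and 0 and 0 in 393LN against 393P by limma, with 0 and 1 at an unadjusted p of 0.05. Over all genes the called shares were 4.86% and 5.62%, 3.99% and 6.92%, and 1.75% and 0.698% in that order of comparisons.

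Of the 40 other keratins measured, Krt23, a type I keratin, rose in 344SQ. It read 10.93, 11.77, 11.48 and 11.92 in 344SQ, 7.33, 7.69, 10.74 and 7.82 in 393LN, and 5.45, 5.99, 6.73 and 6.33 in 393P. No array of 344SQ overlapped the others, and the log2 change was 5.40 ± 0.61 against 393P (42.2-fold, adjusted p = 0.00016) and 3.13 ± 0.61 against 393LN (8.75-fold, adjusted p = 0.0074). Krt81, a hair keratin, fell in 344SQ against 393LN by 0.37 ± 0.09 on the log2 scale (adjusted p = 0.0191). In 344SQ against 393P, 1 of the 40 was higher and 0 lower, in 344SQ against 393LN 1 higher and 1 lower, and in 393LN against 393P 0 and 0 by limma, with 2 higher and 1 lower at an unadjusted p of 0.05. Over all genes the called shares were 4.86% and 5.62%, 3.99% and 6.92%, and 1.75% and 0.698% in the same order.

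Genes of keratin linkage and squamous differentiation were described by counts over lists drawn up with earlier results of these data known. For these lists and those below, the shares of all genes are the yardstick. They were 4.86% higher and 5.62% lower in 344SQ against 393P, and 3.99% and 6.92% in 344SQ against 393LN. In 393LN against 393P they were 1.75% and 0.698%. No list was tested as a whole. Of 13 desmosome and keratin linker genes, 3 fell in 344SQ against 393P and 3 against 393LN, and none rose. Pkp1, a plakophilin that ties keratin filaments to the desmosome, fell by 3.02 on the log2 scale against 393P (adjusted p = 0.00016) and fell by 3.25 against 393LN (adjusted p = 0.000136). Pkp3, its relative, fell by 2.04 (adjusted p = 0.000154) and 1.91 (adjusted p = 0.000368). Dsc2, a desmosomal cadherin, fell by 0.78 against 393P and Pkp2 by 0.63 against 393LN, and the difference between the comparisons was not tested.

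Of 30 squamous differentiation genes, 1 rose and 5 fell in 344SQ against 393P, and 1 rose and 4 fell against 393LN. Serpinb5, the gene of maspin, fell by 3.68 against 393P (adjusted p = 1.05e-05) and by 4.17 against 393LN (adjusted p = 3.86e-06). Ivl, which encodes involucrin of the cornified envelope, fell by 1.97 and 2.10 (adjusted p = 0.000411 and 0.000368). Ly6d fell by 3.84 and 2.38 (adjusted p = 2.16e-05 and 0.000862). Scel rose against 393P (1.24, adjusted p = 0.00234) and Sprr1a against 393LN (1.07, adjusted p = 0.0021). In 393LN against 393P, 2 of the 30 fell, where Sprr1a fell by 1.30 and Ly6d fell by 1.46, and 0 rose.

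Of 19 genes of basal adhesion and p63 targets, 1 rose and 4 fell in 344SQ against 393P, 1 rose and 5 fell against 393LN, and 2 rose and 0 fell in 393LN against 393P. Lama3, a laminin chain of the basement membrane, fell by 5.29 in 344SQ against both lines (adjusted p = 1.95e-08 against 393P and 2.61e-08 against 393LN). Sfn, the gene of 14-3-3 sigma, fell by 1.12 and 1.17 (adjusted p = 0.00342 and 0.00285). Bnc1, a transcription factor of basal keratinocytes, fell by 2.02 against 393LN (adjusted p = 0.00251) and rose in 393LN against 393P by 1.80 (adjusted p = 0.0173). Dst, which holds keratin at hemidesmosomes, rose in 344SQ against 393P (0.90, adjusted p = 0.00407) and in 393LN against 393P (0.76, adjusted p = 0.0319). Of the integrin chains, Itga3 fell by 0.52 in 344SQ against 393P (adjusted p = 0.016), and Itga6 rose by 0.47 in 344SQ against 393LN (adjusted p = 0.019).

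Of 22 regulators of stratified epithelium, 1 rose and 4 fell in 344SQ against 393P, 1 rose and 6 fell against 393LN, and 0 and 0 passed in 393LN against 393P, with 1 higher and 1 lower at an unadjusted p of 0.05. Esrp1, an epithelial splicing regulator, fell by 7.06 against 393P (adjusted p = 6.17e-09) and by 6.70 against 393LN (adjusted p = 1.73e-08). Ovol2 fell by 1.08 and 0.99, and Ovol1 by 1.45 and 1.21. Elf3, an epithelial transcription factor, fell by 1.49 against 393P (adjusted p = 0.00839). Klf5 rose in 344SQ against 393LN by 1.04 (adjusted p = 0.00133). Of 9 suprabasal keratins, which include Krt1 and Krt10, none passed in any comparison, with 1 lower at an unadjusted p of 0.05 in each of the 344SQ comparisons and 0 in 393LN against 393P.

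Of 12 keratinocyte activation genes, which wounding switches on along with Krt6a, 2 rose and 3 fell in 344SQ against 393P, 1 rose and 1 fell against 393LN, and 0 and 0 passed in 393LN against 393P, with 1 higher and 2 lower at an unadjusted p of 0.05. Lcn2, which encodes an iron-carrier-binding protein of inflamed epithelium, fell by 1.25 against 393P (adjusted p = 0.0182) and fell by 1.32 against 393LN (adjusted p = 0.0149). Tgfa, a ligand of the EGF receptor, fell by 1.10 against 393P (adjusted p = 0.00072), and Hbegf, another such ligand, rose by 1.11 against 393LN (adjusted p = 0.0227). Vnn1, a pantetheinase, rose by 2.16 against 393P (adjusted p = 0.0031), and Cxcl5, a chemokine of neutrophils, fell by 2.63 against 393P (adjusted p = 0.00316). Of 8 genes for partners that modify or organise keratins, 1 fell in 344SQ against 393P, 2 fell against 393LN, and 1 rose in 393LN against 393P. Fam83h, which takes part in keratin filament organisation, fell by 1.27 against 393P (adjusted p = 0.00015) and fell by 0.97 against 393LN (adjusted p = 0.00134). Tradd, an adaptor of TNF receptor signalling, fell by 0.65 in 344SQ against 393LN (adjusted p = 0.0153) and rose by 0.94 in 393LN against 393P (adjusted p = 0.0101).

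The genes most like Krt6a over the 12 arrays, among the 10912 genes in the upper 60% of mean level and with gene names, were Dennd2d (r = 0.981), Smurf1 (r = 0.954), Ifi202b (r = 0.950), Cnksr1 (r = 0.949) and Itgax (r = 0.948). Those most like Krt14 were Lgals7 (r = 0.878), Krt10 (r = 0.870), Krt6b (r = 0.858), Dmkn (r = 0.855) and Taf4b (r = 0.825). For Krt6b the arrays fall into a high and a low cluster, as described above. Those most like Trp63 were Krt77 (r = 0.948), Krt79 (r = 0.937), Cdsn (r = 0.882), Dmkn (r = 0.871) and Krt10 (r = 0.871). These are descriptions of the same 12 arrays, and for deviations from the line means the first place was held by the same gene in each case, at 0.923 for Dennd2d, 0.869 for Lgals7 and 0.942 for Krt77. The next 4 by these deviations were Smurf1 (0.922), Dsp (0.904), Slc37a1 (0.900) and Pawr (0.894) for Krt6a, Krt6b (0.862), Krt10 (0.853), Zbtb42 (0.845) and Taf4b (0.844) for Krt14, and Lor (0.936), Krt79 (0.934), Lce1a2 (0.915) and Fbxw4 (0.910) for Trp63.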

How the data were processed

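Total RNA on 12 arrays, 1-colour, was analysed. The deposited probe set intensity values, on a linear scale from a floor of 1 to 21921, were used without further normalization, since array medians of log2 intensity lay between 7.19 and 7.29. How they were summarised is not given in the sources available for this series, and the chip in the design text is smaller than one with 45101 probe sets. Values were taken as log2(intensity + 16). Of the probe sets, 34945 have 1 gene symbol, giving 18193 genes, each tested through its probe set with the highest mean. One mean per line was fitted over all 12 arrays with limma 3.58.1 (lmFit and eBayes) in R 4.3.3, two-sided, and p-values were adjusted by Benjamini-Hochberg over all 18193 genes (for other probe sets, over the 34945). A gene is said to rise or fall at an adjusted p under 0.05. Correlations used 100000 permutations in SciPy 1.17.1. The scripts were tested on simulated data. The number of arrays limits the precision.

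Genes were named by rule: the 9 genes, other keratins called, up to 4 called genes per list and comparison with the smallest p, and the 5 most similar genes. Nkx2-1 was named to check the labelled tissue, and Krt1, Krt6b and Krt25 after their values were seen. The 9 genes and the 18 lists were chosen with earlier results of these data known. Alternatives covered normalization, pseudocount, dim genes, probe set choice, samples, array weights and left-out arrays. The table held 0 further value columns.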

Additional observations from a re-analysis of the deposited data

Results flagged for a closer look

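Of 42 combinations of line and gene checked, 7 had 1 array far from the other 3 by Dixon's test, which by chance picks out about 1 in 20 groups. Krt1, Krt6b and Krt25, which make up 5 of the 7, were named after their values were seen, so that chance rate is no yardstick for them. Krt1 stood out on 344SQ replicate 1 (7.94) and on 393P replicate 3 (8.23), Krt6b on 344SQ replicate 1 (8.94) and on 393P replicate 3 (10.75), and Krt25, a hair follicle keratin, on 393P replicate 3 (6.27). Krt4 stood out on 393LN replicate 3 (7.83), and Krt23 on the same array (10.74). All values are log2(intensity + 16). The Krt1, Krt6b and Krt25 arrays are those with the highest level of the epidermis and hair list in their line. Krt1 and Krt25 are themselves genes of that list, so for them the match is partly built in.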

How the results depend on the processing

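Krt6a was lower in 344SQ than in both other lines under every planned and added setting run, but its call depended on the probe set. With a pseudocount of 1, where the nearly equal probe set 1422783_a_at was chosen, 0 of the 9 genes were lower in 344SQ against 393P (log2 change of Krt6a -0.91) and 0 against 393LN (-0.71). Under quantile normalization, with the same switch, 0 were lower against 393LN (-0.59). Without 344SQ replicate 1, 393LN replicates 2 and 3 and 393P replicate 3, high in the epidermis and hair list within their lines, a setting added after the data were seen that also leaves 8 arrays, 0 were lower against 393LN (-3.65). With any 1 array left out, the count of lower genes stayed at 1 in both comparisons, and Krt6a ranged from -4.36 to -3.47 against 393P and from -4.00 to -3.10 against 393LN.

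Krt4 passed in 344SQ against 393P by 1438394_x_at alone (-0.62). The other values of the 9 genes passed no threshold apart from those of Krt6a above, and some of their small log2 changes turned sign. In 344SQ against 393P, Krt14 became 0.0051 by quantile normalization, 0.13 by the mean of all probe sets, 0.31 by the probe set with the largest variance (1460347_at) and 0.11 by 1455573_at, Krt13 became 0.097 by the probe set with the largest variance (1437344_x_at) and 0.074 by 1441863_x_at, and Krt15 -0.019 with array weights. In 344SQ against 393LN, Krt13 became 0.0016 by the mean of all probe sets, 0.074 by 1437344_x_at and 0.069 by 1441863_x_at. In 393LN against 393P, Krt13 became 0.022 by 1437344_x_at and 0.0052 by 1441863_x_at, Krt17 -0.011 by 1420193_at, Krt6a 0.23 by 1427700_x_at, and Trp63 -0.053 by 1451876_a_at and -0.048 by 1452027_a_at.

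With the epidermis and hair list as a covariate, also added after the data were seen, Krt14 (0.69), Krt16 (0.072), Krt17 (0.51) and Trp63 (0.21) turned sign in 344SQ against 393P, and Krt5 (0.21) and Trp63 (0.14) in 344SQ against 393LN. Without those 4 arrays, Krt14 (0.27), Krt15 (-0.081) and Krt17 (0.074) turned in 344SQ against 393P, Krt4 (0.060) and Krt5 (0.27) in 344SQ against 393LN, and Krt5 (-0.032), Krt13 (0.25) and Trp63 (-0.18) in 393LN against 393P. The cause was not tested.

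Leaving out 1 array at a time gave sign changes in the following ranges. In 344SQ against 393P they were -0.47 to 0.62 for Krt14, -0.21 to 0.56 for Krt15, -0.43 to 0.087 for Krt16, -0.53 to 0.29 for Krt17 and -0.23 to 0.051 for Trp63. In 344SQ against 393LN they were -0.25 to 0.048 for Krt4, -0.38 to 0.044 for Krt5 and -0.33 to 0.011 for Krt13. In 393LN against 393P they were -0.66 to 0.17 for Krt6a, -0.31 to 0.067 for Krt13 and -0.0059 to 0.45 for Trp63.

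Over all genes, the counts called with 1 array left out ranged from 565 to 903 higher and 654 to 1053 lower in 344SQ against 393P, from 427 to 922 and 740 to 1559 in 344SQ against 393LN, and from 105 to 311 and 48 to 166 in 393LN against 393P. The lowest of these counts came without 344SQ replicate 3 (565), 393P replicate 3 (654), 344SQ replicate 2 (427 and 740), 393LN replicate 3 (105) and 393P replicate 3 (48). Array weights gave 1544 and 1776 in 344SQ against 393P and 552 and 331 in 393LN against 393P, and a fit on those 2 lines alone gave 118 and 56. Without those 4 arrays the counts were 378 and 392, 110 and 158, and 1 and 1, and with the covariate 305 and 580 in 344SQ against 393LN and 84 lower in 393LN against 393P. No paired analysis was possible because the labels give the samples no shared replicate numbers.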
